A study of Mus musculus with 12 samples.

Results

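The comparison described here set mouse epiblast stem cells (EpiSCs) treated with CHIR99021 and XAV939 together against untreated EpiSCs, and its members were taken from the sample labels: 3 arrays with both compounds and 3 untreated arrays, 6 of the 12 arrays in the series. EpiSCs are pluripotent cells derived from the post-implantation epiblast. The other 6 arrays held CHIR99021 alone and XAV939 alone, with 3 arrays each, and entered the fit because all groups shared one estimate of the spread. RNA was measured on a single-channel expression array, and the deposited values, on a log2 scale as judged from their range of 2.52 to 14.3, were analysed for 19938 genes.

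All 4 groups were EpiSCs of a 129 mouse background kept without serum for 12 h before collection, although the growth medium entry of the labels lists serum for every sample. Untreated cells received neither compound. CHIR99021 was given at 3 µM for 2 h and XAV939 at 2 µM. The labels of the samples give 2 h for XAV939 and the design text of the series gives 4 h, so its time of action is uncertain. No label states that the replicates came from separate cultures, and p-values therefore measure the spread between these arrays, which may be technical.

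CHIR99021 inhibits the kinases GSK3A and GSK3B, which mark β-catenin for destruction within a complex built on the scaffold AXIN. XAV939 inhibits the tankyrases TNKS and TNKS2, which modify AXIN for degradation, so that AXIN accumulates and β-catenin is lost. The 2 compounds thus act in opposite directions on β-catenin, the co-activator through which Wnt signals reach TCF/LEF target genes, and GSK3 has many substrates outside this pathway.

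With both compounds, 225 of 19938 genes passed an adjusted p of 0.05 in limma's moderated test (1.13%), 163 higher (0.818%) and 62 lower (0.311%) than in untreated cells. Changes were small: the median among the called genes was 0.41 on the log2 scale for those that rose and -0.43 for those that fell, and 2 genes, the activin-binding protein gene Fst and the ligand gene Nodal, moved by at least 1. Called genes of at least 0.5 numbered 34 higher and 9 lower. In all 225 called genes the arrays with both compounds lay wholly above or wholly below the untreated ones. Over all genes 13.0% lay wholly above and 12.0% wholly below, so a lack of overlap named below is no further evidence for a call. The split between directions depended on scaling, with 59 higher and 44 lower after quantile normalization and 55 higher and 49 lower after cyclic loess. Single arrays decided much of the count. It was 153, 42 and 13 without untreated replicates 1, 2 and 3. Without replicates 1, 2 and 3 of the combined treatment it was 84, 10 and 82. The 9 genes that stayed called whichever 1 of these 6 arrays was left out were Bhlhe41, Ddit4, Dido1, Fnip1, Fst, Nodal, Ubn1, Zeb2 and Znrf3. Every called gene other than these 9, whether named below or not, lost its call when at least 1 of the 6 arrays was left out.

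Changes went with expression level. Of the 163 genes that rose, 161 lay above the median level of all genes, 5.43, against 33 of the 62 that fell. The median change over all genes was -0.01, but it was 0.07 among genes above the median level and -0.08 among those below it. The highest value, 0.10, was in the seventh and eighth deciles by level. In these deciles 52 of 1993 and 52 of 1994 genes were called higher, and in the tenth 7 of 1994. Shares over all genes given beside the lists below, of calls or of arrays that do not overlap, do not allow for level. The values of a single array also spread more widely with both compounds. Their standard deviation over all 35399 probes was 2.18 to 2.21 against 2.14 to 2.18 in untreated arrays. The ranges nearly met, at 2.18399 with both compounds and 2.18356 in untreated arrays. The exact two-sided permutation p for the difference in mean standard deviation was 0.1, the smallest that 3 against 3 arrays allow. With this spread as a covariate 20 genes were called, 10 in each direction, and 15 of them were among the 225. With it 12 of the 43 called genes of at least 0.5 kept their call.

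**Figure D1:**
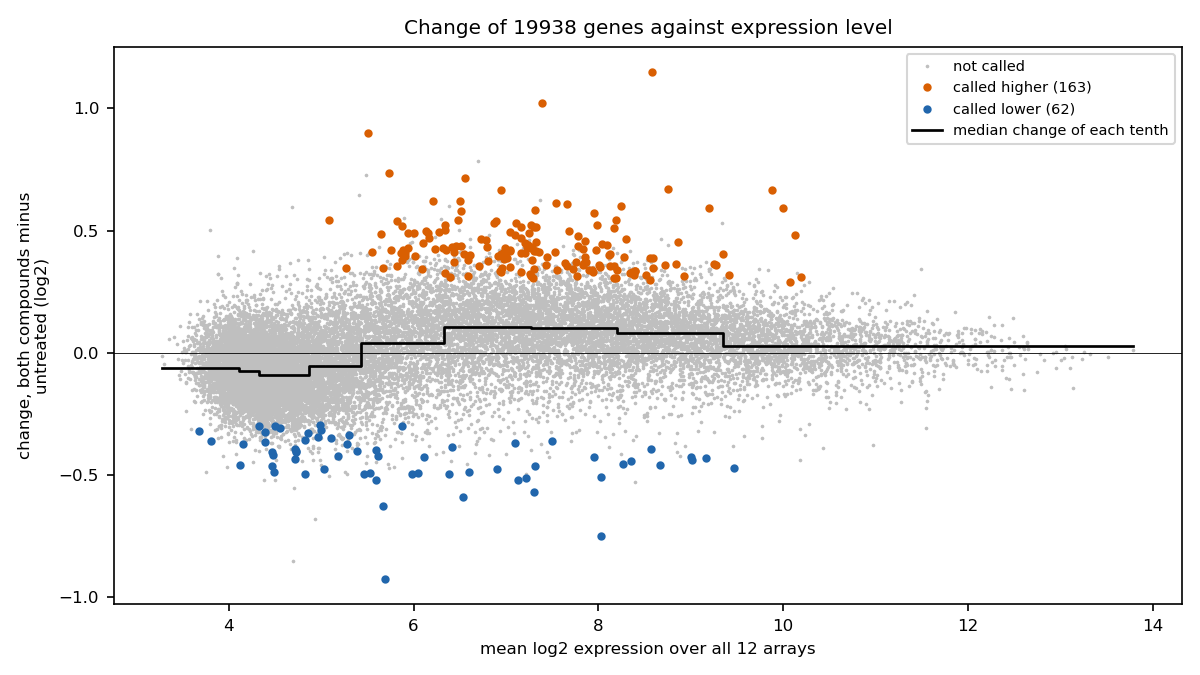
Each point is 1 of 19938 genes, with its mean log2 expression over all 12 arrays on the horizontal axis and its change with both compounds (log2) on the vertical axis, and the black steps are the median change in each decile of genes by level. Genes called higher lay mostly above the median level of 5.43, and the steps pass from below 0 at low levels to 0.10 in the seventh and eighth deciles.

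**Figure D2:**
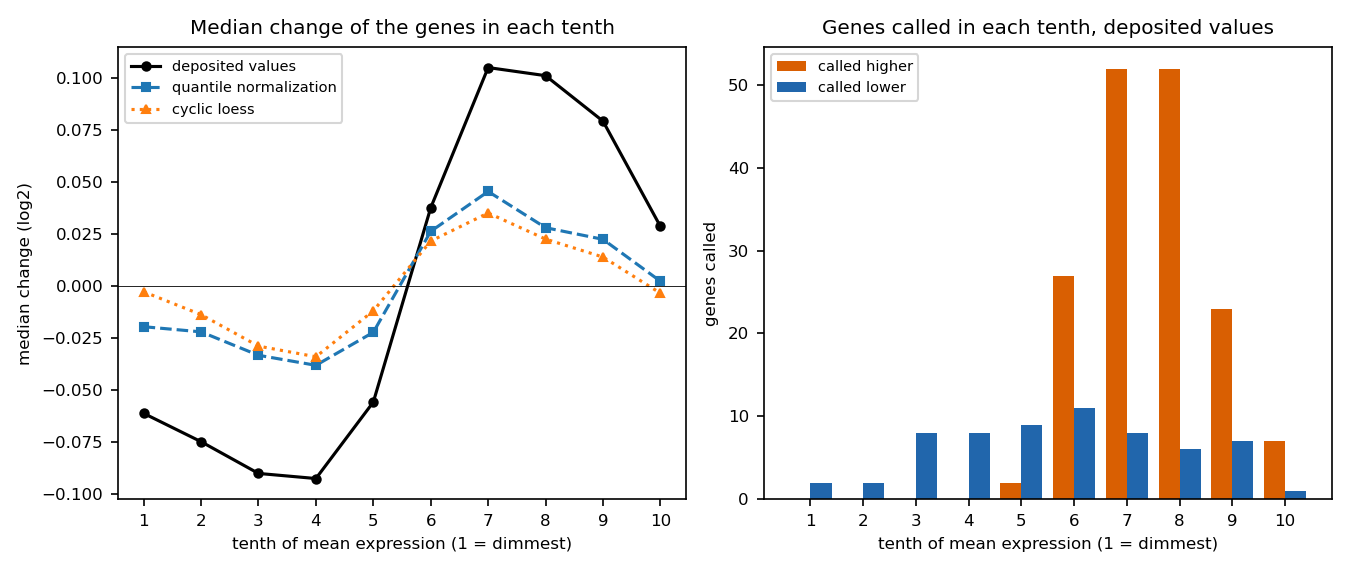
The left panel gives the median change (log2) in each decile of genes by expression level under the deposited values and under quantile and cyclic loess scaling, and the right panel counts the genes called higher and lower in each decile. With the deposited values the medians ran from -0.09 to 0.10, and 52 of the genes called higher fell in each of the seventh and eighth deciles.

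The labelled cell type was checked on its markers. All 7 core pluripotency markers and all 7 primed epiblast markers lay above 4.94, the 95th percentile of 1194 olfactory and vomeronasal receptor genes, used here as a background level. Of 9 feeder fibroblast markers 3 (Col1a1, Col1a2 and Thy1) lay above it, as did 4 of 9 naive, 3 of 6 endoderm, 4 of 4 neural and 0 of 4 trophoblast markers, and none of any list was called. The summed log2 level of the fibroblast markers was 44.7 to 45.2 in untreated arrays and 43.7 to 44.5 with both compounds, and its part in the results was not tested. Their median change was -0.11, and their median level of 4.79 lay in the fourth decile, where the median change of all genes was -0.09. Whether their fall goes beyond that shift of dim genes was not tested. In these bulk samples, fewer cells of a type and less RNA per cell cannot be told apart.

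Nodal, the TGF-β family ligand that maintains the primed state and later patterns the streak, and Fst, which encodes follistatin, a secreted protein that binds activin, carried the largest changes. Fst read 7.88, 8.08 and 7.97 in the untreated arrays and 9.24, 8.91 and 9.24 with both compounds. Nodal read 6.92, 6.78 and 6.75 without and 8.02, 7.63 and 7.86 with them. In both genes every treated array lay well above every untreated one. The changes were 1.15 ± 0.10 (SE, 2.22-fold, limma adjusted p = 4.4e-05) for Fst and 1.02 ± 0.09 (SE, 2.03-fold, limma adjusted p = 5.62e-05) for Nodal. Both calls held in all 24 alternative fits. These 24, here and below, leave out a test against a fold of 1.5, which called 0 genes. They were the 2 called of 28 measured genes of Nodal and activin signalling, beside 1.13% called over all genes. The list's median change was 0.02 against -0.01 over all genes. Like every list below, it was drawn up with earlier results of these arrays known, so no list's count is independent evidence. The feedback inhibitors Lefty1 and Lefty2 stood at -0.10 and -0.12 and the co-receptor gene Tdgf1 at -0.25, none of which passed the test (limma adjusted p of 0.518, 0.545 and 0.53).

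**Figure D3:**
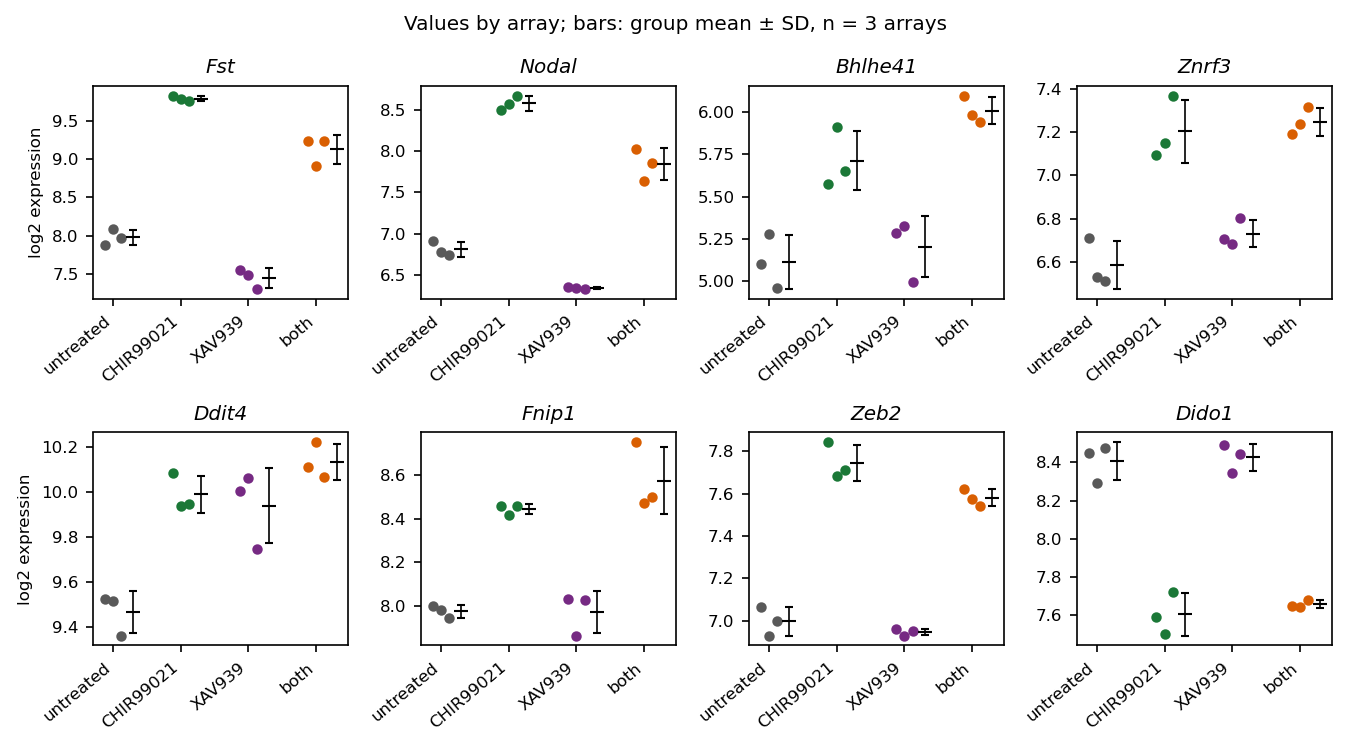
Points are the log2 values of each array in the 4 groups for 8 called genes, with the group mean ± SD (n = 3 arrays) beside them. In each panel, as for all 225 called genes, the arrays with both compounds lie wholly on one side of the untreated arrays. They lie above them for 7 genes and below them for Dido1.

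Among genes of the Wnt pathway, 2 of 22 ligand and secretion genes rose, beside 0.818% over all genes, and 1, Wnt8a, was still called after quantile normalization. Wnt8a, a ligand of the early streak, read 7.95, 7.95 and 7.80 in untreated arrays and 8.45, 8.29 and 8.50 with both compounds, a change of 0.51 ± 0.08 (SE, limma adjusted p = 0.00954). Porcn, the acyltransferase that lipid-modifies Wnt proteins for secretion, rose by 0.35 ± 0.08 (SE, limma adjusted p = 0.0382). The list's median was -0.07. Of 24 receptor and R-spondin genes, Lgr5, an R-spondin receptor that is also a Wnt target, rose by 0.32 ± 0.07 (SE, limma adjusted p = 0.0487).

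No gene of the destruction complex and tankyrase list was called, out of 20, nor any of 18 TCF/LEF factors and partners. Tcf7, on the latter list, was not among the genes tested. For the genes of the compounds' direct targets and of β-catenin, the differences from untreated were 0.02 for Gsk3a, 0.12 for Gsk3b, 0.05 for Tnks2 and 0.05 for Ctnnb1, none of which passed the test. Tnks read 9.34, 9.34 and 9.35 in untreated arrays and 9.56, 9.66 and 9.53 with both compounds, which did not overlap but missed the threshold (change 0.24, limma adjusted p = 0.101). Frat1, which encodes a GSK3-binding protein that competes with AXIN, fell by 0.49 ± 0.09 (SE, limma adjusted p = 0.0197), from 6.85, 6.93 and 6.73 to 6.26, 6.31 and 6.46.

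At the end of the pathway, 3 of 26 measured target genes rose, beside 0.818% over all genes, with a list median of 0.04. Lgr5 lost its call after quantile normalization, which left 2, and Axin2 and Lgr5 after cyclic loess. Znrf3, a transmembrane ubiquitin ligase that removes Frizzled receptors, read 6.71, 6.53 and 6.51 without and 7.19, 7.24 and 7.32 with both compounds, and its rise of 0.67 ± 0.09 (SE, limma adjusted p = 0.00274) held in all 24 alternatives. Axin2, the inducible AXIN scaffold, read 5.77, 6.04 and 6.03 and then 6.48, 6.35 and 6.48, a rise of 0.49 ± 0.10 (SE, limma adjusted p = 0.03). Lgr5, above, was the other. Dact1, a Dishevelled-binding antagonist, rose by 0.54 ± 0.10 (SE, limma adjusted p = 0.0233). Other usual targets were not called, with differences of 0.37 for Sp5, 0.09 for Lef1, 0.04 for Nkd1 and 0.01 for Cdx1. Tbxt and Tcf7, also on the target list, were not among the genes tested.

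Set against CHIR99021 alone, the combination gave 5 calls over all genes (0.0251%), all lower with both compounds, and 4 of them were among the 225 genes. Nodal was lower by -0.74 (limma adjusted p = 0.00954), Fst by -0.66 (limma adjusted p = 0.0368), Gbx2 by -0.61 (limma adjusted p = 0.0465) and Cysltr1, a leukotriene receptor gene, by -0.45 (limma adjusted p = 0.0476). For Axin2 the difference was -0.57 (limma adjusted p = 0.0788) and for Znrf3 0.04 (limma adjusted p = 0.889). Against XAV939 alone 29 of the 225 genes differed, 15 higher and 14 lower, of 47 over all genes (0.236%). The interaction of the compounds was called for 0 genes in limma, with 985 (4.94%) at an unadjusted p under 0.05. The changes from untreated share the same 3 untreated arrays, and are given side by side: Fst 1.81 with CHIR99021, -0.53 with XAV939 and 1.15 with both, Nodal 1.76, -0.47 and 1.02, and Axin2 1.06, -0.22 and 0.49. XAV939 alone gave 0 calls in limma against untreated cells, with 2241 genes (11.2%) at an unadjusted p under 0.05, and CHIR99021 alone gave 84 (0.421%).

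**Figure D4:**
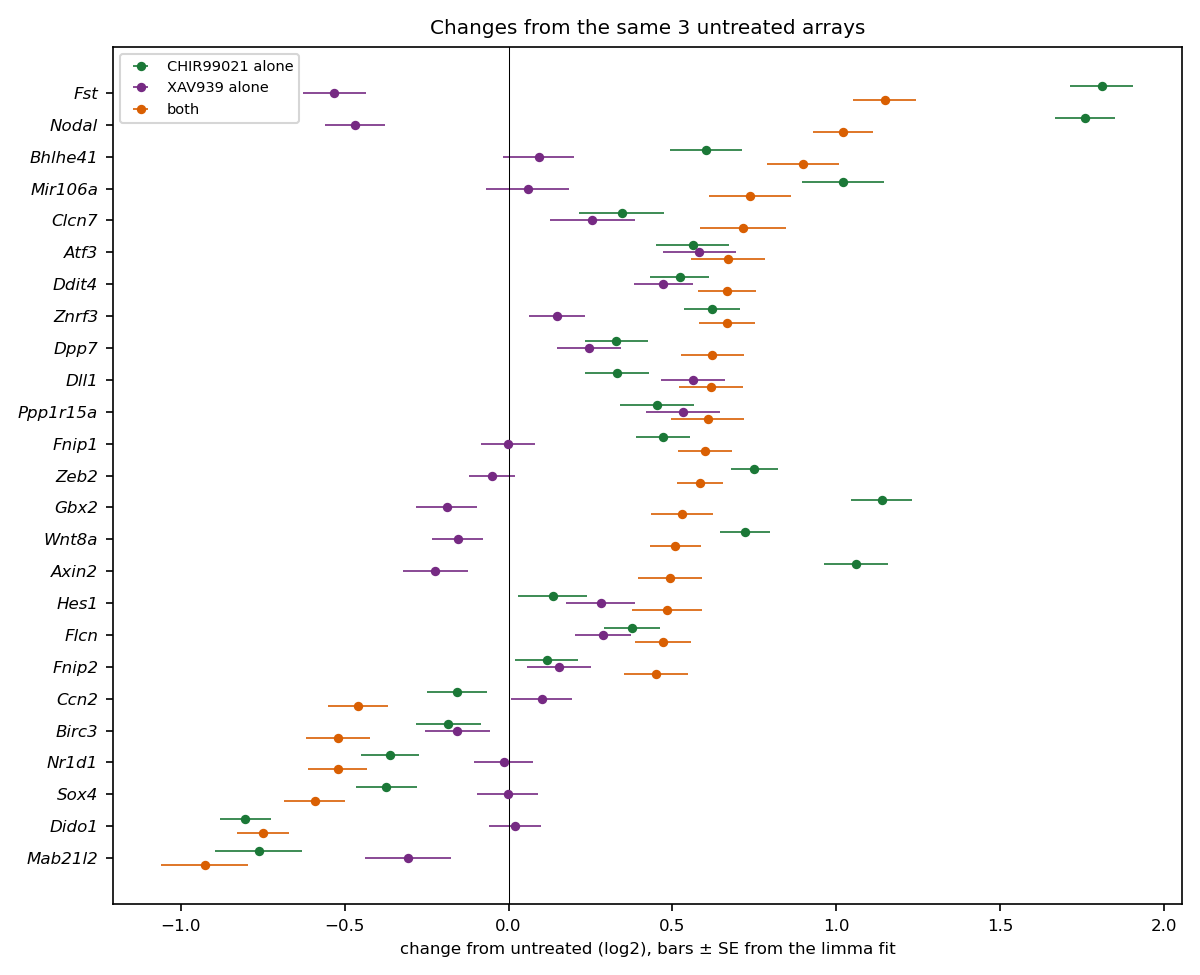
Changes from untreated (log2) are drawn for 25 genes with CHIR99021 alone, XAV939 alone and both compounds, with bars of ± SE from the limma fit, and all 3 share the same untreated arrays. Fst and Nodal lie at 1.81 and 1.76 with CHIR99021 alone and at 1.15 and 1.02 with both.

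Genes around the control of TFE factors and mTORC1 at the lysosome followed. In the folliculin, TFE factor and mTORC1 list 4 of 31 genes rose and none fell. Called higher were 0.818% over all genes, and 52 of 1994 in the eighth decile, where the list's median level lay. After quantile normalization 2 of the 31, Fnip1 and Ddit4, were called. Folliculin, encoded by Flcn, and its partners encoded by Fnip1 and Fnip2 form the complex that acts on Rag GTPases at the lysosome and controls where TFE3 and TFEB reside. Fnip1 read 8.0, 7.98 and 7.94 in untreated arrays and 8.75, 8.47 and 8.50 with both compounds, with no overlap, and rose by 0.60 ± 0.08 (SE, limma adjusted p = 0.00445). Flcn rose by 0.47 ± 0.09 and Fnip2 by 0.45 ± 0.10 (SE, limma adjusted p of 0.0197 and 0.0399). Ddit4, a stress-induced inhibitor of mTORC1, went from 9.52, 9.51 and 9.36 to 10.11, 10.22 and 10.07, a rise of 0.67 ± 0.09 (SE, limma adjusted p = 0.00399). Tfeb and Tfe3 themselves stood at 0.04 and 0.07 and were not called. The list had 14 genes with all treated arrays above all untreated ones (13.0% over all genes) and 0 below (12.0%). Its median change was 0.12, or 0.09 after quantile normalization. Its median level of 7.89 lay in the eighth decile, where the median change of all genes was 0.10, or 0.03 after quantile normalization. This list too was chosen with earlier results of these arrays known, so its count is a description.

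Single genes rose in the lysosomal lists, 1 of 41 for enzymes and 1 of 28 for membrane proteins, too few to set apart from the 0.818% over all genes. Dpp7, a dipeptidyl peptidase of the lysosome, read 6.37, 6.21 and 6.03 and then 6.83, 6.90 and 6.75, a rise of 0.62 ± 0.10 (SE, limma adjusted p = 0.0113). Clcn7, the lysosomal chloride and proton exchanger, read 6.54, 6.07 and 6.06 and then 6.79, 7.02 and 7.0, a rise of 0.71 ± 0.13 (SE, limma adjusted p = 0.0197). Neither gene's groups overlapped, though untreated replicate 1 was the highest untreated array in both. The list medians were 0.13 and 0.14 with the deposited values and 0.09 and 0.10 after quantile normalization, beside 0.10 and 0.10 for all genes in the seventh and eighth deciles by level with the deposited values and 0.05 and 0.03 after quantile normalization. Of 17 V-ATPase and 29 autophagy genes none was called, with medians of 0.11 in each list.

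Promoter sequence was searched, on both strands and from 250 bases before to 50 after each start, for CACGTG, the E-box core that TFE factors, MYC and the clock repressors can bind, because genes of the folliculin and clock lists were called. The RefSeq table (GRCm38.p6) held promoters for 15614 of the genes tested. CACGTG occurred in 23 of 135 promoters of genes that rose (17.0%), in 2 of 42 of genes that fell (4.76%), in 9.50% of all promoters and in 12.4% of those of genes above the median level. TCACGTGA, which contains it, occurred in 4.44% of the promoters of genes that rose and 2.49% of those above the median level. TGACGTCA, the cyclic AMP response element, occurred in 7.41% and 4.03%, and TGATGCAA, an element that ATF4 can bind, in 0.741% and 0.683%. CTTTGAT, a core that TCF/LEF factors can bind, occurred in 0.741% of the promoters of genes that rose, 3.03% of those above the median level and 7.14% (3 of 42) of those of genes that fell. The motifs were chosen after the calls were seen, and the shares are a description. Among the called genes of the folliculin and clock lists, CACGTG was found for Fnip1 and Bhlhe41. None was found for Flcn, Fnip2, Ddit4 or Nr1d1. Promoters were held for 135 of the 163 genes that rose and 42 of the 62 that fell. A gene without a site may therefore have had no promoter searched, though Flcn had one. The genes printed next all carry it and do not stand for the genes called. The 160 bases before the start of 5 genes that rose are shown, on the gene's strand, with each CACGTG in capitals, for Dpp7 (chr2:25356333-25356492, minus), Clcn7 (chr17:25133231-25133390, plus), Vps33a (chr5:123573016-123573175, minus), Fnip1 (chr11:54438019-54438178, plus) and Bhlhe41 (chr6:145865421-145865580, minus).
Dpp7: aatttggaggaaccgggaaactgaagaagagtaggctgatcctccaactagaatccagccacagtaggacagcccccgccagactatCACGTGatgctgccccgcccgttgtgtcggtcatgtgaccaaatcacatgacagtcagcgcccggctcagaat
Clcn7: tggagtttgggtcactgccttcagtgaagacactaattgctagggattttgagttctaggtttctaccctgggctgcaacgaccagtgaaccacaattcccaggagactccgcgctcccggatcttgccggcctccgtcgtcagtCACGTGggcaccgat
Vps33a: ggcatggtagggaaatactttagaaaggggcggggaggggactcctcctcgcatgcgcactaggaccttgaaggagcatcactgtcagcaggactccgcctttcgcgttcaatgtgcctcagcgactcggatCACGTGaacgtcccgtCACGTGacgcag
Fnip1: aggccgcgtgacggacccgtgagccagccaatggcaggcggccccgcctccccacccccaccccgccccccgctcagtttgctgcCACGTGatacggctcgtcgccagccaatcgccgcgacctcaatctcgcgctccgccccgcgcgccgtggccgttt
Bhlhe41: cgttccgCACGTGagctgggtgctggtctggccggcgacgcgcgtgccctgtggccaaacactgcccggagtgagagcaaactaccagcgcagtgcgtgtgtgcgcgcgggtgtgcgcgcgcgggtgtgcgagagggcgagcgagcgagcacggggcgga

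Vps33a, which encodes a subunit of the HOPS complex that tethers endosomes to lysosomes, carries 2 such sites in this window and rose by 0.45 ± 0.08 (SE, limma adjusted p = 0.0165).

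Of 21 circadian clock genes, 1 rose and 1 fell, beside 0.818% and 0.311% over all genes, and both encode transcriptional repressors. Bhlhe41, which encodes DEC2, read 5.10, 5.27 and 4.96 in untreated arrays and 6.10, 5.98 and 5.94 with both compounds, wholly apart, and rose by 0.90 ± 0.11 (SE, limma adjusted p = 0.00147). Nr1d1, which encodes the nuclear receptor REV-ERBα, read 7.25, 7.38 and 7.42 and then 6.89, 6.62 and 6.98, and fell by 0.52 ± 0.09 (SE, limma adjusted p = 0.0169). Bhlhe40, the close relative of Bhlhe41, stood at 0.26 and was not called (limma adjusted p = 0.188).

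The ATF4 and amino acid list had a median of 0.09 and no gene called lower. Stress genes rose in 3 of its 34 members, beside 0.818% over all genes. Besides Ddit4, these were Atf3, a stress-induced bZIP factor, from 8.45, 8.35 and 8.10 to 9.23, 8.88 and 8.79, and Ppp1r15a, the GADD34 subunit that directs removal of phosphate from eIF2α, from 7.45, 7.29 and 7.05 to 8.03, 7.94 and 7.64. Their rises were 0.67 ± 0.11 and 0.61 ± 0.11 (SE, limma adjusted p of 0.0153 and 0.0212). Atf4 stood at 0.05, Asns, the asparagine synthetase gene, at -0.00 and Trib3 at 0.31, none of them called. None of 24 genes in a list of the unfolded protein response and chaperones was called. Of 26 immediate early genes 2 rose, beside 0.818% over all genes. Klf10, a TGF-β-inducible repressor, rose by 0.59 ± 0.11 and Gadd45a, a growth arrest gene, by 0.48 ± 0.09 (SE, limma adjusted p of 0.0197 and 0.0239). Of 22 p53 targets Plk2, a Polo-like kinase gene, rose by 0.32 ± 0.07 (SE, limma adjusted p = 0.0442).

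In the Notch list 2 of 32 genes rose, the ligand gene Dll1 and the effector gene Hes1, beside 0.818% over all genes, and Hes1 lost its call after quantile normalization. Dll1 read 5.95, 5.85 and 5.72 and then 6.35, 6.69 and 6.32, a rise of 0.62 ± 0.10 (SE, limma adjusted p = 0.0113). Hes1 rose by 0.48 ± 0.11 (SE, limma adjusted p = 0.0415). The Notch list's median change was 0.06, beside 0.10 for all genes in the seventh decile, where its median level of 6.41 lay. Of its 32 genes 24 had a positive change, while Lfng stood at -0.47 and Nrarp at -0.30, neither called. Zeb2, a repressor of epithelial genes, read 7.06, 6.93 and 7.0 and then 7.62, 7.58 and 7.54, with no overlap, and rose by 0.58 ± 0.07 (SE, limma adjusted p = 0.00147). Fn1, the fibronectin gene, rose by 0.35 ± 0.08 (SE, limma adjusted p = 0.0451). With Zeb2 that made 2 of 22 genes of the epithelial-mesenchymal list called, beside 1.13% over all genes. Epha4, an ephrin receptor gene, rose by 0.50 ± 0.11 (SE, limma adjusted p = 0.0381).

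None of 23 core pluripotency and primed epiblast genes was called, and the list's median change was within 0.01 of 0. Pou5f1 read 11.43, 11.49 and 11.46 without and 11.46, 11.55 and 11.43 with both compounds, values that overlapped. Nanog stood at 0.25 (limma adjusted p = 0.19), Sox2 at 0.11 and Fgf5 at -0.17. Of 18 naive pluripotency genes 1 was called, Gbx2, a homeobox gene, which rose by 0.53 ± 0.09 (SE, limma adjusted p = 0.0174) from 6.69, 6.86 and 6.65 to 7.14, 7.21 and 7.43. Of 23 primitive streak and endoderm genes Wnt8a alone was called, and Eomes stood at 0.09 and Foxa2 at -0.22, neither called. Tbxt, also on that list, was not among the genes tested.

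Among the genes that fell, Dido1, which encodes a nuclear PHD finger protein, had the smallest p. It read 8.45, 8.29 and 8.48 in untreated arrays and 7.65, 7.64 and 7.68 with both compounds and fell by 0.75 ± 0.08 (SE, limma adjusted p = 0.000368). This call held in all 24 alternatives. Ppp1r10, which encodes the nuclear targeting subunit PNUTS of protein phosphatase 1, fell by 0.44 ± 0.09 (SE, limma adjusted p = 0.0356), while Ccnt2, a cyclin of the elongation factor P-TEFb, rose by 0.48 ± 0.09 (SE, limma adjusted p = 0.0192). These 3 were the calls among 25 transcription elongation genes, beside 1.13% called over all genes.

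Of 21 genes in a list of Mab21l2, Eya, Sox and related factors 4 fell and none rose, beside 0.311% lower over all genes. The list's median was -0.09, or -0.03 after quantile normalization. That list, like the others, was drawn up with earlier results of these arrays known, and its count is no independent evidence of a direction. Mab21l2, a gene needed for eye and body wall development, read 5.94, 6.22 and 6.39 and then 5.02, 5.20 and 5.55, and fell by 0.93 ± 0.13 (SE, limma adjusted p = 0.00667). Sox4, an HMG-box factor gene, read 6.66, 6.85 and 6.83 and then 6.07, 6.16 and 6.33, and fell by 0.59 ± 0.09 (SE, limma adjusted p = 0.0113). In both genes the highest treated array lay under the lowest untreated one. Eya1, a transcriptional co-activator gene, fell by 0.50 ± 0.10 and Six5, a homeobox gene, by 0.36 ± 0.08 (SE, limma adjusted p of 0.0322 and 0.0414).

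Other genes that fell came from several lists. Birc3, an inhibitor of apoptosis gene, fell by 0.52 ± 0.10 and Nfkbia, which encodes the NF-κB inhibitor IκBα, by 0.43 ± 0.10 (SE, limma adjusted p of 0.0233 and 0.0457). They were 2 of 21 genes of their list, beside 0.311% lower over all genes. Ccn2, a YAP-responsive matrix gene, fell by 0.46 ± 0.09 (SE, limma adjusted p = 0.03) as 1 of 25 Hippo list genes, and Pim1, a LIF-responsive kinase gene, fell by 0.43 ± 0.08 (SE, limma adjusted p = 0.0233). Ccng2, the cyclin G2 gene that FoxO factors activate, fell by 0.49 ± 0.09 while Igf1r, the IGF1 receptor gene, rose by 0.52 ± 0.10 (SE, limma adjusted p of 0.0233 for each). Pdgfb, a growth factor gene, fell by 0.50 ± 0.08 and Bmf, a BH3-only apoptosis gene, by 0.50 ± 0.10 (SE, limma adjusted p of 0.00954 and 0.031).

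Of 300 microRNA genes measured 1 rose and 3 fell, a called share of 1.33% close to the 1.13% over all genes. The values belong to the gene symbol, and no mature arm was assigned to them. Mir106a rose by 0.74 ± 0.13 (SE, limma adjusted p = 0.0165), and its 5p arm carries a seed, bases 2 to 8, that the RefSeq table (GRCm38.p6) lists for 7 mature microRNAs. Mir139 fell by 0.48 ± 0.09 (SE, limma adjusted p = 0.025), Mir129-1 by 0.40 ± 0.09 and Mir24-2 by 0.41 ± 0.09 (SE, limma adjusted p of 0.0425 and 0.0464). The mean level of Mir24-2 was under the receptor background of 4.94. Mature sequences are shown for the gene that rose and the one that fell most, with the seed in capitals, and no seed is shared among them.
miR-106a-5p: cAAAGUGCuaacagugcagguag
miR-106a-3p: aCUGCAGUgccagcacuucuuac
miR-139-5p: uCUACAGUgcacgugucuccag
miR-139-3p: uGGAGACGcggcccuguuggag

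Mir106a read 4.99, 5.50 and 5.34 in untreated arrays and 5.81, 6.18 and 6.06 with both compounds, and Mir139 read 7.23, 7.21 and 7.08 and then 6.54, 6.66 and 6.90. Neither pair of groups overlapped.

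No member was called in the lists of BMP signalling (25 genes), FGF and ERK signalling (23), neural and anterior patterning (18), MYC and ribosome biogenesis (29), cholesterol synthesis (22), mitosis (24), the aryl hydrocarbon receptor (12), glycogen metabolism (18) or polyamine metabolism (9). Their median changes ran from -0.09 for the neural list to 0.08 for the polyamine list.

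**Figure D5:**
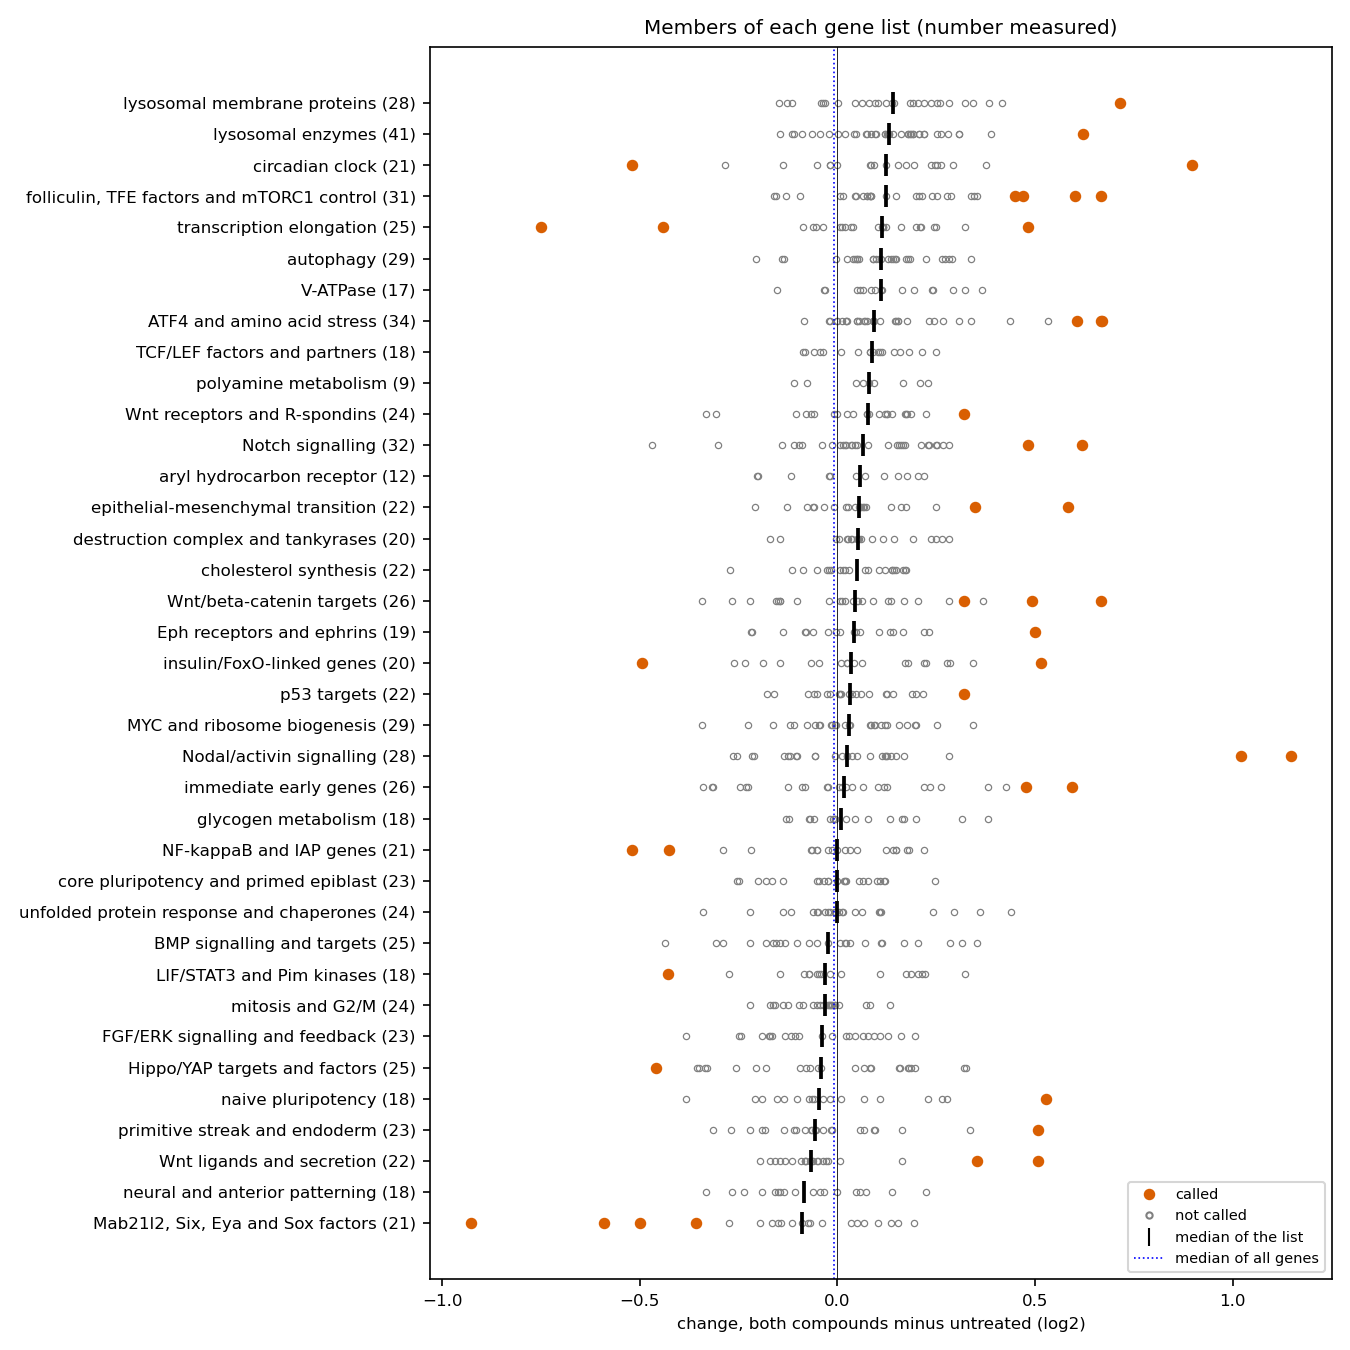
Each row is 1 of 37 gene lists with the number of measured genes, each point a gene's change with both compounds (log2), filled where it was called, and the bar marks the list's median. The folliculin and lysosomal lists have medians of 0.12 to 0.14, and the list with Mab21l2 has a median of -0.09.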

How the data were processed

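The deposited table held 1 log2 value per probe and array, made by the authors in a way not given in the sources used here beyond the name Partek in the submitters' processing notes. The log2 scale was inferred from the values. Of 35399 probes, 21789 had 1 gene symbol, 1621 several and 11989 were not listed, and only the first kind was used, with 1 probe per gene for the 999 genes with more than 1. This left 19938 genes. The number of arrays limits the precision.

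One limma model (3.58.1, R 4.3.3) over all 12 arrays with a mean per group and empirical Bayes moderation gave each contrast, with Benjamini-Hochberg adjustment over all genes and a threshold of 0.05. On simulated data for this comparison with 19938 genes and 200 changed, 78% of changes of 0.5 and 99% of changes of 1 were recovered, and 3.8% of calls were false. The simulated noise was independent between genes and arrays and held no shift with expression level, unlike the deposited values. These rates therefore do not carry over to the 225 calls.

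Named genes were up to 20 called genes per direction with the largest change, and a fixed set of Wnt, pluripotency and TFE genes. Called list members, the list members with the smallest p and called microRNA genes were also named. So were genes called in every alternative other than the test against a fold of 1.5. Others named were chosen after their values were seen. The members and lists were chosen with earlier results of these data known. Alternatives changed the scaling, filter, probe rule, moderation, weights, covariates and arrays.

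Deviations of same-numbered arrays from their group means correlated at -0.25 to 0.20 over 18 pairs, with 6 over 0.1. Between untreated arrays and those with both compounds they correlated at -0.09 to 0.04. Between XAV939 arrays and those with both compounds same-numbered arrays correlated at 0.09, 0.16 and 0.10, and different-numbered ones at -0.14 to 0.05. Weak correlations in groups of 3 arrays cannot exclude pairing by replicate number, and the main fit used none.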

Additional observations from a re-analysis of the deposited data

How the results depend on the processing

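The count of 225 genes called with both compounds was 103 after quantile normalization, 104 after cyclic loess, 348 (287 higher and 61 lower) after median centring, 352 among genes above the 25th percentile, 528 (446 higher and 82 lower) among genes above the median, 109 in a fit to these 2 groups alone, 550 with array weights and 20 with the array spread as a covariate. A test against a fold of 1.5 in limma called 0 genes, with 5 at an unadjusted p under 0.05. Leaving out 1 array gave 10 to 284 genes. Without untreated replicate 3 and XAV939 replicate 2 together, an alternative chosen after seeing the data, 12 were called.

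With the replicate number as a block, 168 genes were called, 149 of them among the 225. Whether the numbers pair the arrays was not settled.

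Of the 225 genes, 86 (52 higher and 34 lower) kept their call under both scalings, and 8 in all 24 alternatives other than the fold test. Among genes named in the report, Axin2, Lgr5, Porcn, Flcn, Fnip2, Gadd45a, Hes1, Fn1, Epha4, Six5, Igf1r, Plk2, Mir129-1 and Mir24-2 lost their call under quantile or cyclic loess scaling. No named gene's called change turned its direction in any alternative. The cause of these differences was not tested. Dim genes are limited by background: 20 of the 62 genes that fell lay under the receptor background of 4.94, and 0 of the 163 that rose.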
